A study of Mus musculus with 8 samples.

Results

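The Hox cluster genes were taken as all genes with a symbol made of Hox, a cluster letter from a to d and a paralogue number. The platform's probe annotation paired 33 such genes with 1 probe set each, among 15267 named genes on the array. The set held 9 genes of the Hoxa cluster, 9 of Hoxb, 6 of Hoxc and 9 of Hoxd, which lie on chromosomes 6, 11, 15 and 2 in that order. The membership rule used no measured value. Other Hox genes were not analysed here.

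Hox genes encode homeodomain transcription factors that give cells of the embryo their position along the head-to-tail axis. Genes at the low-numbered end of a cluster act in the hindbrain and neck, and those at the high-numbered end act in the lumbar region, tail, limbs and genitalia. In embryonic stem (ES) cells the clusters are a standard example of genes held silent by Polycomb complexes, and retinoic acid, Wnt signals and Cdx factors switch them on as cells differentiate. Tet1 encodes an enzyme that oxidises methylated cytosine in DNA and is known to bind CpG-rich promoters.

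Expression was profiled on 8 Affymetrix arrays of bulk RNA from E14Tg2a, an established mouse ES cell line. Each of 4 groups had 2 arrays: cells given the control siRNA and harvested 96 h after transfection, cells given Tet1 siRNA 1 or siRNA 2 and harvested at that same time, and cells given siRNA 1 and harvested at 48 h. The control duplex is aimed at firefly luciferase, and both Tet1 duplexes are aimed at the same transcript. All groups were transiently transfected cultures of 1 cell line, and no control of 48 h was analysed here, so that time after transfection and the effect of the duplex cannot be told apart in comparisons with the 48 h arrays. Whether replicate arrays stem from independent cultures is not in the labels; the p-values then reflect array-to-array spread alone, part or all of which may be technical. The level of Tet1 was not analysed here, and the labels were not checked against it.

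ES cell identity was checked on a list of 10 pluripotency genes, whose mean signal lay between 11.95 and 12.72 (log2) on the 8 arrays. Lung epithelium markers were present on all 6 arrays of 96 h, controls included, with a mean of 7.44 to 8.04 over 12 measured genes, against 5.18 and 5.20 on the 48 h arrays. Scgb1a1, the secretoglobin of airway club cells, read 11.9 to 12.8 on the arrays of 96 h and 3.71 and 4.03 on those of 48 h. Single Hox genes differed in direction between the times, as given below, and the mean over the 33 genes was 4.69 and 4.68 in the controls, 4.63 and 4.62 with siRNA 1, 4.70 and 4.62 with siRNA 2, and 4.73 and 4.71 at 48 h.

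**Figure D1:**
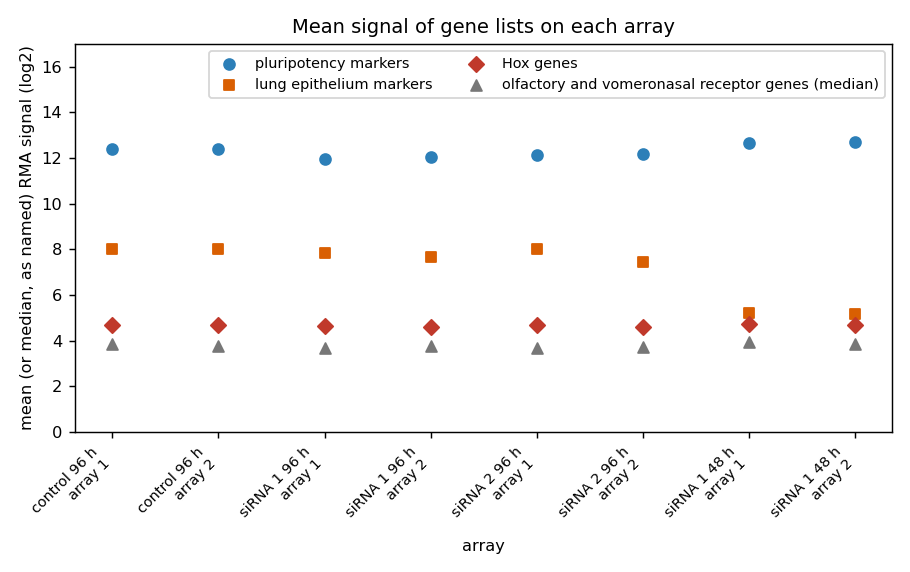
Mean RMA signal (log2) of the pluripotency markers, the lung epithelium markers and the Hox genes, and the median signal of olfactory and vomeronasal receptor genes, on each of the 8 arrays; points are arrays. The Hox mean stays between 4.62 and 4.73 while the lung mean falls from 7.44 or more at 96 h to 5.20 or less at 48 h.

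Hox signals were low on every array. Values are RMA signals on the log2 scale, and probe sets differ in how well they bind, so signals were set against background references and no gene's signal is ranked against another's as an amount; the median of all genes is given only as a mark on the scale. Probe sets aimed at the bacterial trp gene, 3 in number and taken to have no target in mouse RNA, read 3.18 to 3.71. A second reference, 65 olfactory and vomeronasal receptor genes, whose products serve smell and pheromone sensing, had gene means from 2.93 to 6.06 with a median of 3.78. The 33 Hox genes had means from 3.43 to 7.28 with a median of 4.21, and the median over all genes was 6.79. In 27 of 33 the mean lay above the highest trp value, and in 23 of these every array did. Only 11 had a mean above 5.22, the 95th percentile of the receptor genes: Hoxa7, Hoxa9, Hoxb2, Hoxb9, Hoxb13, Hoxc6, Hoxc9, Hoxc13, Hoxd3, Hoxd9 and Hoxd13. Means above the highest receptor gene were found for Hoxa7, Hoxa9, Hoxc9 and Hoxd3, and Hoxa7 alone lay above the median of all genes. In bulk RNA, few cells with a transcript and little transcript per cell cannot be told apart.

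**Figure D2:**
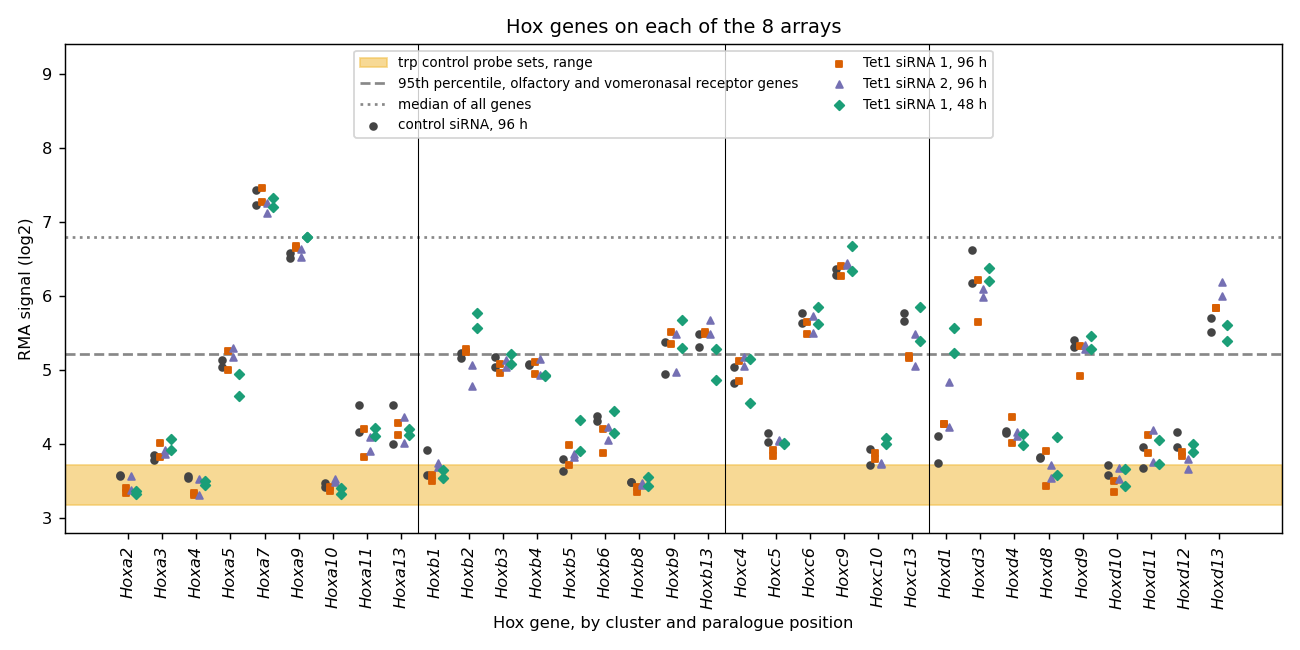
RMA signal (log2) of the 33 Hox genes on each of the 8 arrays, ordered by cluster and paralogue position; each point is 1 array, and symbols mark the groups. The shaded band is the range of the trp probe sets (3.18 to 3.71), the dashed line the 95th percentile of the receptor genes (5.22) and the dotted line the median of all genes (6.79).

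Replicate arrays set the scale for any difference. The median distance between the arrays of a group was 0.13 to 0.17 for Hox genes and 0.09 to 0.10 for all genes. The widest distances within a group were 0.54 for Hoxa13 in the controls, 0.57 for Hoxd3 with siRNA 1 at 96 h, 0.61 for Hoxd1 with siRNA 2 and 0.59 for Hoxc4 at 48 h. Over all 8 arrays the range of a Hox gene had a median of 0.50 and stayed under 1 for 32 of 33 genes. Hoxd1 was the exception, with a range of 1.82.

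Promoter windows from RefSeq (GRCm38.p6), which run from 250 bases before the gene start to 50 after it, were found for 21 of the 33 genes, in 23 windows. Their count of the letters CG, which read the same on both strands, had a median of 14 per window of 300 bases, with a range of 4 to 45. Over 15474 windows of 12273 genes named on the array the median was 17. Windows with 10 or more CG made up 69.6% of the Hox windows and 67.3% of all. The upstream 250 bases of Hoxd1, which had the widest range over the arrays, and of Hoxd13, called in 3 of the comparisons below, are shown 5′ to 3′ with each CG in capitals.
Hoxd1 (chr2:74762730-74762979, plus strand): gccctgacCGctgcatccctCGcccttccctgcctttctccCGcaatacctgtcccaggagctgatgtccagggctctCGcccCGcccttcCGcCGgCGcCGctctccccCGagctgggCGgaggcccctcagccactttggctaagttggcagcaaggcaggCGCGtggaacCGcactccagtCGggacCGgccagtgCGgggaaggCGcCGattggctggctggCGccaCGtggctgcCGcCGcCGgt
Hoxd13 (chr2:74667975-74668224, plus strand): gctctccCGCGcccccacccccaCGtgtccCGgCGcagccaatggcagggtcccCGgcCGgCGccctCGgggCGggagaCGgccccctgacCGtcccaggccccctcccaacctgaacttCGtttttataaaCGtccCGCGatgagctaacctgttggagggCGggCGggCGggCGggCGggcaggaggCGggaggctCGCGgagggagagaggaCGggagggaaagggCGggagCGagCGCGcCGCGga
These stretches hold 24 CG in Hoxd1 and 31 in Hoxd13. The same stretch of Hoxa9 holds 3. Methylation of these letters was not measured on the arrays.

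The main comparison asked which Hox genes differed at 96 h between both Tet1 siRNAs, taken as 1 mean, and the control siRNA. Of 33 genes Hoxd13, a factor of digit and genital development, rose, Hoxc13, a factor of hair and nail formation, fell, and 31 did not pass. That is 6.06%, while 24.2% of all 15267 genes were called (1836 genes higher, and 1864 genes or 12.2% lower), and 19.0% of the 8145 genes whose means lie in the range spanned by the Hox genes. The threshold for a call was 0.05 on the Benjamini-Hochberg adjusted p (two-sided limma test over all genes, with all 8 arrays in the fit). The median log2 difference was -0.06 over the Hox genes and -0.02 over all genes, and 13 Hox genes had a positive and 20 a negative value. The count was 0 without siRNA 1 array 2 and 1 without siRNA 1 array 1 (Hoxd3), control array 1 (Hoxd13) or control array 2 (Hoxd12). Other members also came in under alternatives: Hoxa4 without siRNA 2 array 1, Hoxd1 without siRNA 2 array 2 and with the lung covariate, Hoxd12 without genes at or below the trp level, and Hoxa11 with the replicate block. By cluster, 0 of 9 Hoxa genes, 0 of 9 Hoxb genes, 1 of 6 Hoxc genes and 1 of 9 Hoxd genes were called. By position, 0 of 7 anterior (paralogues 1 to 3), 0 of 12 central (4 to 8) and 2 of 14 posterior genes (9 to 13) were called.

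**Figure D3:**
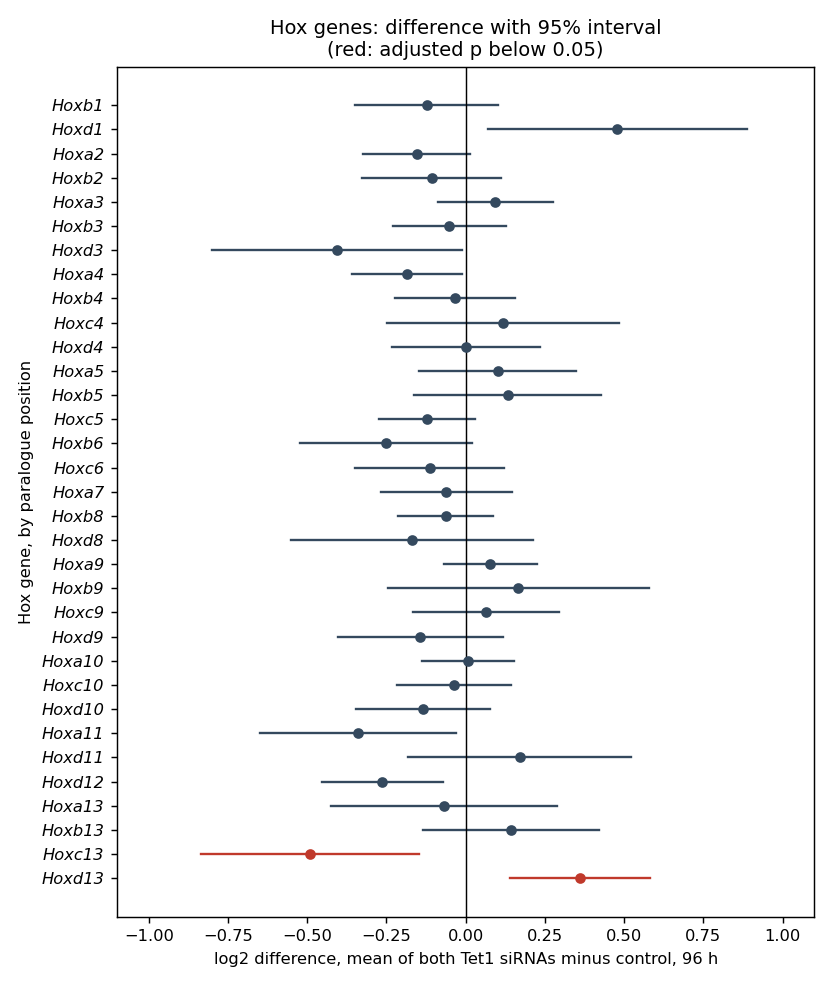
Log2 difference between the mean of both Tet1 siRNAs and the control at 96 h (x axis) for each Hox gene (y axis, by paralogue position); points are estimates from limma and lines are unadjusted 95% intervals. Hoxc13 (-0.49) and Hoxd13 (0.36), in red, have an adjusted p below 0.05, and all estimates lie between -0.49 and 0.48.

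Hoxd13 read 5.70 and 5.51 in the controls, 5.84 and 5.83 with siRNA 1, 6.19 and 6.002 with siRNA 2, and 5.61 and 5.39 at 48 h, where the first value of each pair is array 1 and the second array 2. All 4 siRNA arrays of 96 h lay above both controls, and the 48 h arrays overlapped the controls. The difference was 0.36 ± 0.096 on the log2 scale (SE; 4 arrays against 2), or 1.28-fold (adjusted p = 0.0276, limma). Against the same controls, siRNA 2 alone gave 0.49 ± 0.11 (adjusted p = 0.0215, limma) and siRNA 1 alone 0.23 ± 0.11 (adjusted p = 0.178, limma). The duplexes themselves differed by -0.26 ± 0.11, siRNA 1 minus siRNA 2, which did not pass (adjusted p = 0.459, limma). In the main comparison the call was lost without control array 2 (adjusted p = 0.187), siRNA 1 array 1 (0.0609) or 2 (0.0628), or siRNA 2 array 1 (0.0635). For siRNA 2 alone it was lost without control array 2 (0.109) or siRNA 2 array 1 (0.104), and with only the groups compared (0.0581).

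Hoxc13 read 5.78 and 5.65 in the controls, 5.16 and 5.18 with siRNA 1, 5.49 and 5.06 with siRNA 2, and 5.85 and 5.40 at 48 h. All 4 siRNA arrays of 96 h lay below both controls, while the 48 h arrays spread from below to above the control values. The log2 difference was -0.49 ± 0.15, a 1.41-fold fall, with an adjusted p of 0.0462 (limma). Taken singly, siRNA 1 gave -0.54 ± 0.17 (adjusted p = 0.0559) and siRNA 2 -0.44 ± 0.17 (adjusted p = 0.130, limma). The call was lost without control array 1 (adjusted p = 0.186) or 2 (0.105), siRNA 1 array 1 (0.0927) or 2 (0.0923), or siRNA 2 array 2 (0.0915). On the same arrays the mean of the lung markers was 8.02 and 8.01 in the controls and 7.85 and 7.67 with siRNA 1. It was 8.04 and 7.44 with siRNA 2, and 5.20 and 5.18 at 48 h. In the same comparison 2 of 12 lung markers fell, 0 rose and the list's median was -0.20. With the lung mean as a covariate the Hoxc13 difference was -0.31 and the adjusted p 0.227 (limma), and that of Hoxd13 remained called. The slope of that covariate comes only from lung differences between arrays of a group, the widest being 8.04 against 7.44 with siRNA 2. The part of the lung signal in the Hoxc13 and Hoxd13 differences was thus not tested. Of other marker lists in this comparison, 2 of 10 pluripotency genes rose and 5 fell (median -0.18), and 5 of 16 fibroblast genes rose and 1 fell (median 0.13), with 24.2% of all genes called; their part in the Hoxc13 and Hoxd13 differences was not tested.

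The other paralogues of group 13 did not pass in this comparison. Hoxa13, a limb and hindgut factor, read 3.997 and 4.53 in the controls, 4.13 and 4.28 with siRNA 1, 4.37 and 4.01 with siRNA 2, and 4.12 and 4.21 at 48 h, and its control arrays stood further apart than any 2 siRNA arrays of a group. Hoxb13, a factor of the tail and prostate, read 5.48 and 5.30 in the controls, 5.48 and 5.51 with siRNA 1, 5.67 and 5.49 with siRNA 2, and 4.87 and 5.29 at 48 h. Its log2 difference was 0.14 ± 0.12 (adjusted p = 0.435, limma). The 4 genes of the group thus had log2 differences of -0.07 in Hoxa13, 0.14 in Hoxb13, -0.49 in Hoxc13 and 0.36 in Hoxd13.

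Among the 31 genes that did not pass, Hoxd12 came nearest the threshold. Hoxd12, which acts in the limb, read 4.17 and 3.96 in the controls, 3.90 and 3.84 with siRNA 1, 3.80 and 3.66 with siRNA 2, and 3.90 and 3.99 at 48 h. All 4 siRNA arrays of 96 h lay below both controls, with a log2 difference of -0.26 ± 0.083 and an adjusted p of 0.0519 (limma). Groups that do not overlap were found for 7 Hox genes, against 44.3% of all genes, and these were Hoxa4, Hoxb6, Hoxb8, Hoxc13, Hoxd1, Hoxd12 and Hoxd13. The unadjusted p was below 0.05 for 7 as well, against 5520 of all 15267 genes. These 7 were Hoxa4, Hoxa11, Hoxc13, Hoxd1, Hoxd3, Hoxd12 and Hoxd13. For all 31 the unadjusted 95% interval lay within 1 log2 unit of 0, and for 28 of them within a change of 1.5-fold. The lowest bound was -0.80, for Hoxd3, and the highest 0.89, for Hoxd1.

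Each duplex against the control gave fewer calls than the mean of both. With siRNA 1, 0 of 33 Hox genes were called by limma. Of all genes 22.8% were called (11.6% higher, 11.2% lower), and 18.0% of those in the Hox range. An unadjusted p below 0.05 was found for 5 Hox genes and for 5463 of all 15267 genes. The siRNA 1 and control arrays did not overlap for 14 Hox genes and for 62.6% of all genes. With siRNA 2, 1 Hox gene was called, Hoxd13, against 15.7% of all genes (8.01% higher, 7.66% lower) and 12.5% of those in the Hox range. Here 18 Hox genes did not overlap, and 57.4% of all genes. Without siRNA 2 array 1 this count was 0, without siRNA 2 array 2 it was 2 (Hoxd1, Hoxd13), and without control array 2 Hoxd12 was called in place of Hoxd13. For siRNA 1 the count was 2 without its array 1 (Hoxd3, Hoxd9), and 1 without control array 1 (Hoxb1) or without any single array of siRNA 2 or 48 h (Hoxc13). Both comparisons use the same 2 control arrays. Between the duplexes 0 Hox genes were called (limma), against 0.0197% of all genes and 0.0246% of those in the Hox range. The unadjusted p was below 0.05 for 2 Hox genes, Hoxb2 and Hoxd13, and for 1625 of all 15267 genes. Groups did not overlap for 12 Hox genes and 41.1% of all genes.

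Hoxd1 stood out at 48 h. Hoxd1, expressed in pain-sensing neurons of the mouse, read 4.11 and 3.74 in the controls, 4.27 and 4.27 with siRNA 1, 4.84 and 4.23 with siRNA 2, and 5.24 and 5.56 at 48 h. Both 48 h arrays lay above all 6 arrays of 96 h, and the siRNA arrays of 96 h lay above both controls. With siRNA 1 the signal was lower at 96 h than at 48 h by 1.13 ± 0.21 on the log2 scale (that is, -1.13; 2.19-fold; adjusted p = 0.00355, limma). At 48 h it was higher than in the controls of 96 h by 1.47 ± 0.21, or 2.78-fold (adjusted p = 0.00125, limma). The lower of those controls, 3.74, lay near the highest trp value of 3.71. The mean of Hoxd1 over all arrays was 4.53, below the 95th percentile of the receptor genes (5.22). At 96 h the mean of both siRNAs exceeded the control by 0.48 ± 0.18, which did not pass (adjusted p = 0.0892, limma). Both calls with the 48 h arrays were kept when any single array was left out. Both were lost with the lung covariate (adjusted p = 0.401 and 0.594, limma), a fit in which no gene of any kind was called.

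Hoxb2, which acts in the hindbrain, had a smaller step between the times. It read 5.23 and 5.17 in the controls, 5.24 and 5.28 with siRNA 1, 5.07 and 4.79 with siRNA 2, and 5.57 and 5.76 at 48 h. The 48 h arrays were again the highest of all 8. The 96 h minus 48 h difference with siRNA 1 was -0.41 ± 0.11 (adjusted p = 0.0206) and the 48 h minus control difference 0.47 ± 0.11 (adjusted p = 0.0126, limma). The first call was lost without siRNA 1 array 1 (0.0877) or 2 (0.0673) of 96 h or array 2 of 48 h (0.133), and the second without control array 2 (0.0583) or array 2 of 48 h (0.0902).

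Between 48 h and 96 h of siRNA 1, Hoxd1 and Hoxb2 were lower and Hoxb13 and Hoxd13 higher at 96 h, so that 4 of 33 Hox genes were called, with 37.6% of all genes called (19.2% higher, 18.5% lower) and 29.4% of those in the Hox range. Groups did not overlap for 13 Hox genes and for 70.3% of all genes. Hoxb13 differed by 0.42 ± 0.14 (adjusted p = 0.0463) and Hoxd13 by 0.34 ± 0.11 (adjusted p = 0.0426, limma). The median over the 33 genes was -0.12, and it was -0.03 over all genes. By position 2 of 7 anterior genes were lower, 2 of 14 posterior genes were higher and 0 of 12 central genes were called. The median was -0.12 over anterior, -0.12 over central and -0.10 over posterior genes, and 9 of the 14 posterior genes had a negative value. Hoxc13, a paralogue of Hoxb13 and Hoxd13, differed by -0.45 ± 0.17, which did not pass (adjusted p = 0.0717, limma). It was called with the replicate number as a block and with only the groups compared. The Hoxb13 call was lost without siRNA 1 array 1 (0.123) or 2 (0.150) of 96 h, either siRNA 2 array (0.0532 each) or array 1 of 48 h (0.245), and with the replicate number as a block (0.0644). The Hoxd13 call was lost with an intensity trend (0.0559) and without siRNA 1 array 1 (0.130) or 2 (0.128) of 96 h or array 2 of 48 h (0.238). Without siRNA 1 array 2 of 96 h the count was 1, with Hoxd1 the gene called.

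Against the controls of 96 h, the 48 h arrays were higher for Hoxd1, Hoxb2 and Hoxa9, and 0 Hox genes were lower, so that 3 of 33 were called, against 35.4% of all genes (17.1% higher, 18.4% lower) and 27.0% of those in the Hox range. Groups did not overlap for 14 Hox genes and for 68.9% of all genes. Hoxa9, a factor of blood progenitors, read 6.51 and 6.58 in the controls, 6.65 and 6.67 with siRNA 1, 6.63 and 6.53 with siRNA 2, and 6.79 and 6.79 at 48 h. Its difference at 48 h was 0.25 ± 0.074, or 1.19-fold (adjusted p = 0.0293, limma), and the 48 h arrays lay above all others. The Hoxa9 call was lost without control array 1 (0.135) or 2 (0.0657) or array 1 (0.0933) or 2 (0.102) of 48 h, with an intensity trend in the variance prior (0.0586) and with only the groups compared (0.0519). Other members came in when 1 array was left out: Hoxc10 without control array 2, and Hoxb13 and Hoxc9 without array 2 of 48 h. Hoxa2 came in without array 1 or without array 2 of siRNA 2. As fitted, Hoxb13 and Hoxa2 were lower at 48 h, by -0.32 ± 0.14 and -0.23 ± 0.085. Hoxc10 and Hoxc9 were higher, by 0.22 ± 0.090 and 0.18 ± 0.12, and none of these passed. This comparison shares the 48 h arrays with the one above and the controls with the main one.

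Marker lists of other cells were counted between the times, where 37.6% of all genes were called. Of 12 lung epithelium markers 10 were higher and 0 lower at 96 h than at 48 h of siRNA 1, with a median of 1.98, and 3 of 12 lung mesenchyme markers were higher (median 0.22). Of 16 fibroblast genes 8 were higher and 2 lower, and of 11 endothelial and blood genes 3 were higher and 2 lower. Pluripotency genes had 6 lower and 1 higher of 10. With the lung mean as a covariate 0 genes of any kind were called between the times, so the part of the lung signal in the Hox differences with 48 h cannot be told apart from time. Hoxa5, which is required for lung development, read 5.03 and 5.13 in the controls, 5.000 and 5.26 with siRNA 1, 5.17 and 5.30 with siRNA 2, and 4.65 and 4.95 at 48 h. Its 96 h minus 48 h difference with siRNA 1 was 0.33 ± 0.12 and did not pass (adjusted p = 0.0696, limma). Its paralogues Hoxb5 and Hoxc5 went the other way, by -0.26 ± 0.15 and -0.13 ± 0.076, and did not pass (adjusted p = 0.205 and 0.215, limma). A link of Hoxa5 to the lung signal was not tested. Hoxa5 was called with the replicate block in both comparisons with 48 h, and between the times also without siRNA 1 array 1 of 96 h or array 2 of 48 h.

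**Figure D4:**
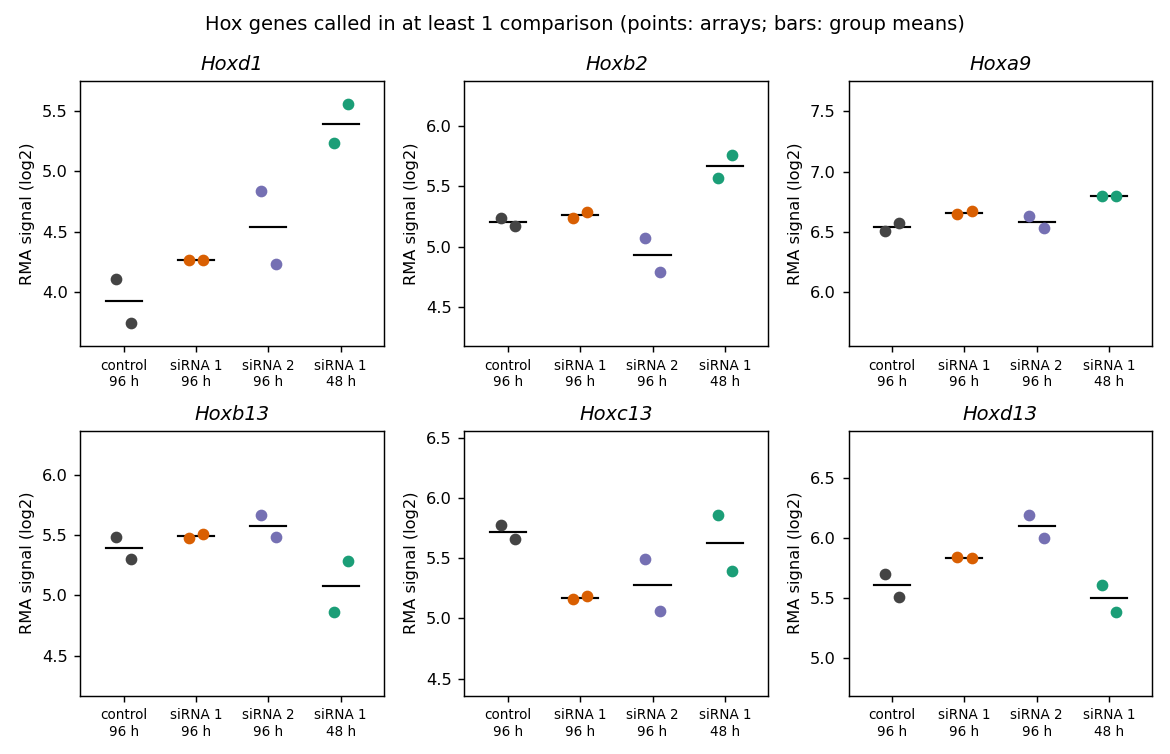
RMA signal (log2) of the 6 Hox genes called in at least 1 comparison, with the groups on the x axis; points are arrays and bars are group means, and every panel spans the same number of log2 units. Hoxd1 at 48 h (5.24 and 5.56) lies above its 6 arrays of 96 h (3.74 to 4.84), and the other 5 genes span less than 1 log2 unit.

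**Figure D5:**
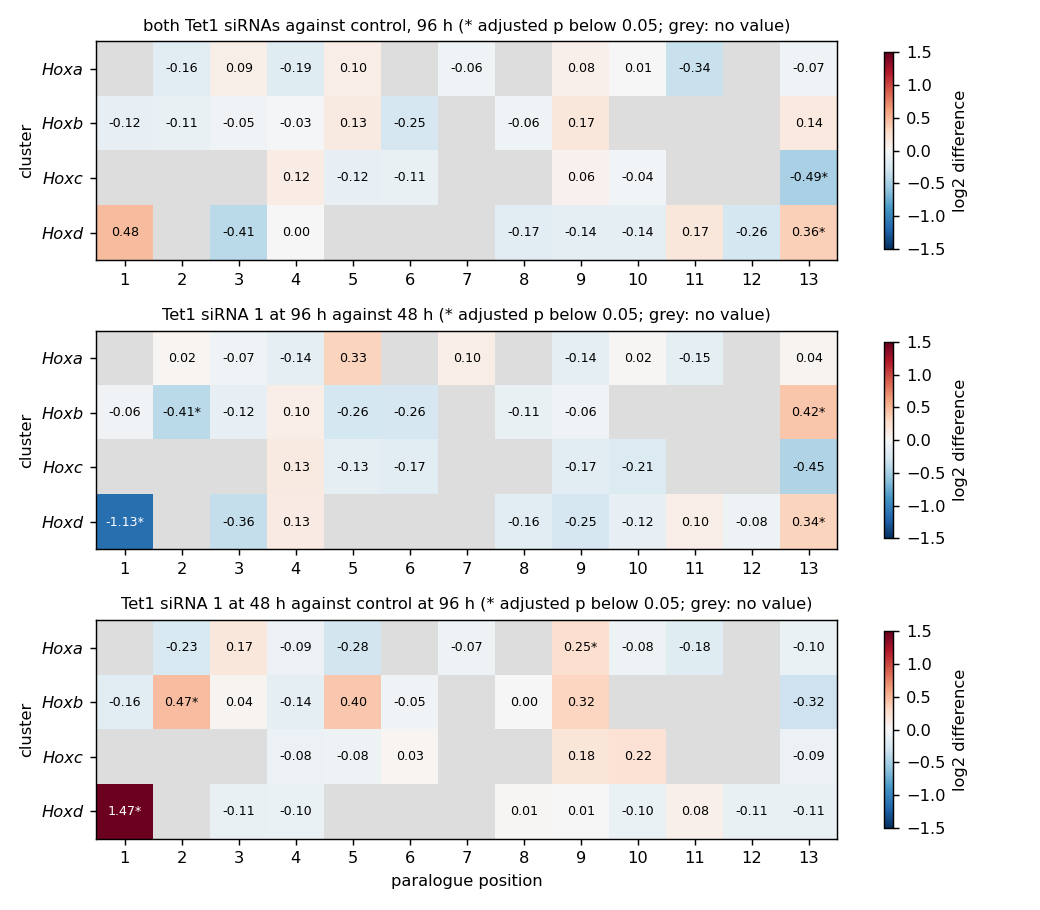
Log2 differences by cluster (rows) and paralogue position (columns) in 3 comparisons, which share arrays; an asterisk marks an adjusted p below 0.05 and grey marks positions with no value. Called genes lie at positions 1, 2, 9 and 13, and none of the Hoxa genes is called in the upper map.

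The other anterior genes did not pass in any comparison as fitted. Under alternatives Hoxd3 was called in the main comparison, with siRNA 1 and between the times, each without siRNA 1 array 1 of 96 h. Hoxb1 was called with siRNA 1 without control array 1. Hoxa2 was called at 48 h against the controls without array 1 or without array 2 of siRNA 2. Hoxa3, which patterns the thymus and parathyroid, read 3.85 and 3.79 in the controls, 4.02 and 3.83 with siRNA 1, 3.87 and 3.92 with siRNA 2, and 4.06 and 3.92 at 48 h. Hoxb3, a hindbrain gene, read 5.17 and 5.04 in the controls, 4.97 and 5.09 with siRNA 1, 5.04 and 5.13 with siRNA 2, and 5.08 and 5.22 at 48 h. Hoxd3, which patterns the first neck vertebrae, read 6.17 and 6.62 in the controls, 6.22 and 5.65 with siRNA 1, 5.99 and 6.10 with siRNA 2, and 6.21 and 6.37 at 48 h. The range of the 4 siRNA arrays of 96 h overlapped that of the controls in each. Both siRNA 2 arrays lay above the controls for Hoxa3 and below them for Hoxd3, by differences that did not pass. The main Hoxd3 difference of -0.41 ± 0.17 did not pass (adjusted p = 0.128, limma). Hoxb1, which gives a hindbrain segment its identity, and Hoxa2, which acts in the second branchial arch, had means of 3.65 and 3.44, within the range of the trp probe sets.

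The 12 central genes had 0 calls in all 6 comparisons as fitted, although under alternatives Hoxa4 was called in the main comparison (without siRNA 2 array 1), Hoxb5 in both comparisons with 48 h (without array 1 of 48 h), and Hoxa5 as given above. Hoxb4, known for promoting the expansion of blood stem cells, read 5.08 and 5.07 in the controls, 5.11 and 4.95 with siRNA 1, 5.15 and 4.93 with siRNA 2, and 4.94 and 4.92 at 48 h. Hoxc4, of the same paralogue group, read 5.04 and 4.83 in the controls, 4.85 and 5.12 with siRNA 1, 5.17 and 5.06 with siRNA 2, and 5.14 and 4.56 at 48 h. Hoxd4, a retinoic acid target in the hindbrain and neck, read 4.17 and 4.15 in the controls, 4.01 and 4.37 with siRNA 1, 4.11 and 4.16 with siRNA 2, and 4.14 and 3.99 at 48 h. In all 3 the range of the 4 siRNA arrays of 96 h overlapped that of the controls, although both siRNA 2 arrays of Hoxc4 lay above its controls, by a difference that did not pass. Hoxb5 read 3.80 and 3.64 in the controls, 3.99 and 3.72 with siRNA 1, 3.86 and 3.82 with siRNA 2, and 3.90 and 4.33 at 48 h. Hoxc5 read 4.14 and 4.03 in the controls, 3.83 and 3.92 with siRNA 1, 4.04 and 4.06 with siRNA 2, and 3.997 and 4.02 at 48 h. Hoxb5 had its highest value on array 2 of 48 h, and its 48 h minus control difference of 0.40 ± 0.15 did not pass (adjusted p = 0.0681, limma). Hoxb6 read 4.31 and 4.37 in the controls, 4.20 and 3.88 with siRNA 1, 4.06 and 4.23 with siRNA 2, and 4.45 and 4.15 at 48 h. Hoxc6, a gene of the thoracic region, read 5.77 and 5.64 in the controls, 5.65 and 5.49 with siRNA 1, 5.73 and 5.49 with siRNA 2, and 5.62 and 5.85 at 48 h. Hoxb6 was below both controls on all 4 siRNA arrays of 96 h, by a difference of -0.25 that did not pass (adjusted p = 0.165, limma). Hoxa7 read 7.43 and 7.23 in the controls, 7.27 and 7.45 with siRNA 1, 7.25 and 7.11 with siRNA 2, and 7.32 and 7.20 at 48 h. Hoxd8 read 3.83 and 3.81 in the controls, 3.91 and 3.44 with siRNA 1, 3.72 and 3.55 with siRNA 2, and 3.58 and 4.10 at 48 h. The arrays of each siRNA group overlapped the controls for Hoxa7. Its siRNA 1 arrays of 96 h lay above those of siRNA 2, by a difference that did not pass. Hoxd8 reached the trp range on some arrays. Hoxa4 and Hoxb8 stayed within 3.31 to 3.57 on all arrays, inside the trp range.

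Outside group 13, Hoxa9 was the 1 posterior gene called as fitted. Hoxa11, Hoxc9, Hoxc10, Hoxd9 and Hoxd12 were called under alternatives only. Hoxb9 read 5.38 and 4.95 in the controls, 5.35 and 5.51 with siRNA 1, 5.49 and 4.98 with siRNA 2, and 5.68 and 5.29 at 48 h. Hoxc9, which sets the identity of thoracic motor neurons, read 6.28 and 6.36 in the controls, 6.27 and 6.41 with siRNA 1, 6.41 and 6.45 with siRNA 2, and 6.67 and 6.33 at 48 h. Hoxd9 read 5.31 and 5.40 in the controls, 5.32 and 4.92 with siRNA 1, 5.29 and 5.33 with siRNA 2, and 5.46 and 5.28 at 48 h. In all 3 the range of the 4 siRNA arrays of 96 h overlapped that of the controls, and the spread within a group reached 0.51 for Hoxb9. Both siRNA 2 arrays of Hoxc9 lay above its controls, by a difference that did not pass. Hoxc10, a gene of the lumbar region, read 3.71 and 3.93 in the controls, 3.79 and 3.88 with siRNA 1, 3.74 and 3.73 with siRNA 2, and 3.999 and 4.08 at 48 h. Hoxa11, which acts in the forearm and kidney, read 4.17 and 4.53 in the controls, 3.83 and 4.21 with siRNA 1, 3.90 and 4.10 with siRNA 2, and 4.11 and 4.21 at 48 h. Hoxd11, its partner in those tissues, read 3.67 and 3.96 in the controls, 3.88 and 4.13 with siRNA 1, 3.75 and 4.18 with siRNA 2, and 4.06 and 3.74 at 48 h. Hoxa11 had a log2 difference of -0.34 ± 0.13 in the main comparison (adjusted p = 0.107, limma), with 1 siRNA array above the lower control. Hoxa10, known in the uterus and lumbar spine, and Hoxd10 had means of 3.43 and 3.56, in the trp range.

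Partner and upstream genes of the Hox system were counted in the same fit, in which 24.2% of all genes were called. Hox proteins bind DNA with Pbx, Meis and Pknox factors; of 8 measured, 2 rose and 0 fell in the main comparison, Pbx3 by 0.68 ± 0.093 (adjusted p = 0.00147) and Meis1 by 0.37 ± 0.11 (adjusted p = 0.0463, limma). Of 10 Cdx, Evx, ParaHox and related homeobox genes 0 rose and 2 fell, Gbx2, a midbrain-hindbrain gene also active in ES cells, by 0.42 ± 0.077 and Cdx1, a direct activator of Hox genes, by 0.48 ± 0.12 (adjusted p = 0.00601 and 0.0228). Of 17 retinoic acid genes 4 rose and 2 fell. Among the risers were the nuclear receptor corepressor gene Nrip1, by 1.23 ± 0.084, the retinoic acid binding protein gene Crabp2, by 0.54 ± 0.063, and the receptor gene Rxrg, by 0.67 ± 0.11, while the receptor gene Rxrb fell by 0.30 ± 0.076. Medians were -0.02 for the cofactors, -0.14 for the homeobox genes and -0.06 for the retinoic acid genes, beside -0.02 over all genes.

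Chromatin regulators of the clusters were called about as often as all genes: 3 of 11, 3 of 13 and 3 of 12 in 3 lists, beside 24.2% of all genes. Of 11 genes of Polycomb repressive complex 2, 1 rose and 2 fell: Rbbp4, a histone chaperone, rose by 0.33 ± 0.086, and the methyltransferase gene Ezh1 and the accessory gene Mtf2 fell by 0.52 ± 0.064 and 0.42 ± 0.059. Ezh2, Eed and Suz12, the core of the complex in ES cells, had log2 differences of -0.05, -0.17 and 0.15 that did not pass. Of 13 genes of Polycomb repressive complex 1, 3 rose and 0 fell, Yaf2 by 0.87 ± 0.090, Pcgf5 by 0.48 ± 0.069 and Pcgf6 by 0.34 ± 0.082. Of 12 Trithorax and H3K27 demethylase genes 0 rose and 3 fell, the methyltransferase gene Kmt2c by 0.61 ± 0.097, the demethylase gene Kdm6b by 0.46 ± 0.094 and Men1, a partner of Hox-activating methyltransferases, by 0.35 ± 0.079. The medians of these 3 lists were -0.03, 0.10 and -0.04.

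Genes near the clusters were set beside the Hox genes. Of 18 measured neighbours 1 rose and 3 fell in the main comparison, with a median of -0.09 and with 24.2% of all genes called. Calcoco1, near the Hoxc cluster, fell by 0.75 ± 0.10, Snx10 and Hibadh, on the sides of the Hoxa cluster, fell by 0.41 ± 0.066 and 0.29 ± 0.068, and Mtx2, beside the Hoxd cluster, rose by 0.42 ± 0.065. Evx1 and Evx2, homeobox genes at the posterior ends of the Hoxa and Hoxd clusters, did not pass, with log2 differences of -0.24 and -0.13.

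The same lists were counted between the times, where 37.6% of all genes were called, at 48 h against the controls (35.4%), with siRNA 1 (22.8%) and with siRNA 2 (15.7%). No list is set apart from all genes by these counts, since the difference was not tested. At 96 h of siRNA 1 compared with 48 h, 2 of 8 cofactor genes were higher and 1 lower, 1 of 10 homeobox genes was higher and 2 lower, and 5 of 17 retinoic acid genes were higher and 5 lower. Of the Polycomb lists 0 of 11 and 0 of 13 genes were higher, and 3 and 4 lower. Of 12 Trithorax and demethylase genes 1 was higher and 4 lower, and of 18 cluster neighbours 3 were higher and 5 lower. At 48 h compared with the controls of 96 h the higher and lower genes numbered 1 and 1 for cofactors, 1 and 1 for homeobox genes, 3 and 3 for retinoic acid genes, 2 and 1 and then 4 and 0 for the Polycomb lists, 0 and 1 for the Trithorax list and 4 and 6 for the neighbours. With siRNA 1 alone the numbers against the control were 1 and 0, 0 and 2, 4 and 1, 1 and 2, 3 and 1, 0 and 3, and 1 and 4, in the same order of lists. With siRNA 2 alone they were 1 and 0, 0 and 1, 4 and 1, 0 and 2, 2 and 0, 0 and 3, and 2 and 2. Between the duplexes 0 genes of these 7 lists were called, beside 3 of all genes (limma; 1625 of all genes at an unadjusted p below 0.05).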

How the data were processed

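RNA of E14Tg2a cells was measured on 8 arrays. The authors deposited RMA values on the log2 scale, per the submitters' processing notes, which name RMA with no version; the scale was read from the values. The number of arrays limits the precision, and detection calls were not used here. Of 16556 probe sets, 64 were controls and 1222 were not listed in the platform annotation and stayed unnamed. Symbols were updated through Entrez IDs (0 changed). For 3 genes with several probe sets the brightest was used. No column belonged to another sample.

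One mean per group was modelled over all 8 arrays with limma 3.58.1 in R 4.3.3 (4 residual and 4.13 prior degrees of freedom), checked on simulated data. In 6 comparisons p-values were adjusted over 15267 genes, and values after ± are standard errors of the difference. Replicate differences of the groups correlated from -0.056 to 0.14, so numbers were not taken as pairs.

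All genes matching the Hox symbol rule are accounted for; members called in any comparison or with a mean above the trp probe sets are given array by array, and from each list of cofactors, homeobox genes, retinoic acid genes, chromatin regulators and cluster neighbours up to 4 genes called in the main comparison with the smallest adjusted p are named, besides Ezh2, Eed, Suz12, Evx1, Evx2, Scgb1a1, Tcf15, Mesp2 and Meox1, which were picked after their values were seen. The members and lists were chosen with earlier results of these data known. Alternatives were filters on dim genes, an intensity trend, a robust prior, 2 normalizations, a replicate block, a lung marker covariate, the mean of probe sets, a fold threshold, only the groups compared, and leaving out each array.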

Additional observations from a re-analysis of the deposited data

How the results depend on the processing

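The counts of called Hox genes were 2 in the main comparison, 0 with siRNA 1, 1 with siRNA 2, 0 between the duplexes, 4 between 96 h and 48 h of siRNA 1, and 3 between 48 h and the controls. When single arrays were left out they ranged from 0 to 2, 0 to 2, 0 to 2, 0 to 0, 1 to 4 and 2 to 4, in that order. Requiring a 1.5-fold change left 0 in the main comparison, 0 with siRNA 2, 1 between 96 h and 48 h and 1 between 48 h and the controls. Leaving out genes below the median gene mean, which keeps 1 Hox gene (Hoxa7), gave 0 in each of these 4. With siRNA 1 the count was 1 with an intensity trend and 1 with only the groups compared, Hoxc13 in both. With siRNA 2 it was 2 without genes at or below the trp level (Hoxd12, Hoxd13), 2 with an intensity trend and 2 with the lung covariate (Hoxd1 and Hoxd13 in both), and 0 with only the groups compared. With the lung covariate it was 0 between the times and 0 between 48 h and the controls, where 0 of all genes were called. In that fit the 96 h minus 48 h difference turned to -0.22 for Hoxb13 and -0.46 for Hoxd13. Its lung slope rests on differences within groups, the widest being 8.04 against 7.44 with siRNA 2, while the 48 h arrays read 5.20 and 5.18. Both values are therefore extrapolations and not measured differences. With the replicate block the count was 3 in the main comparison (Hoxa11, Hoxc13, Hoxd13) and 2 with siRNA 1 (Hoxa11, Hoxc13), beside 1 (Hoxd13), 0, 5 (Hoxa5, Hoxb2, Hoxc13, Hoxd1, Hoxd13) and 4 (Hoxa5, Hoxa9, Hoxb2, Hoxd1) in the others. With the receptor genes as background, 11 Hox genes lay above it in place of 27. Causes other than those given by a setting's construction were not tested. Hox signals near the trp level limit what a difference can show. Over all genes, a 1.5-fold change left 875 of 3700 calls in the main comparison, 1137 of 3487 with siRNA 1, 730 of 2392 with siRNA 2, 1818 of 5748 between the times and 1591 of 5410 between 48 h and the controls. With the lung covariate 2335 genes were called in the main comparison and 1349 with siRNA 2, and with only the groups compared 1364 with siRNA 2. Leaving out single arrays took these counts as low as 2218 in the main comparison (control array 2), 1906 with siRNA 1 (its array 2), 1160 with siRNA 2 (its array 2), and 3664 and 3212 in the comparisons with 48 h (array 2 of 48 h). Between the duplexes the 3 calls became 172 among brighter genes and 124 with an intensity trend, and 0 without any 1 array of siRNA 1 or siRNA 2 and with only the groups compared.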

Other observations

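Genes of posterior mesoderm, a tissue in which Hox genes are switched on early in the embryo, were counted as a further list. So were genes of neuroectoderm and of the neurons formed from it. Of 16 posterior mesoderm genes 1 rose and 1 fell in the main comparison, with a median of 0.04 and 24.2% of all genes called. Tcf15, a factor of paraxial mesoderm that is also active in ES cells, read 11.4 on both controls, 11.7 and 11.8 with siRNA 1, 11.7 on both arrays of siRNA 2, and 12.3 on both arrays of 48 h. It was higher with the siRNAs by 0.33 ± 0.063 (adjusted p = 0.00731, limma), and at 48 h it exceeded the controls of 96 h by 0.86 ± 0.072 (adjusted p = 0.00017). In that comparison 4 of the 16 genes were higher, 1 was lower and 11 missed the threshold (median 0.04), beside 35.4% of all genes called. Mesp2, a gene of somite formation, was higher at 48 h than in those controls by 0.76 ± 0.11 (adjusted p = 0.0015), as was Meox1, a somite homeobox gene, by 0.49 ± 0.14 (adjusted p = 0.0266, limma). Tcf15, Mesp2 and Meox1 were picked after their values were seen. Cdx1, the gene of the list that fell in the main comparison, read 5.12 and 4.91 in the controls and 4.68 and 4.29 at 48 h. Of 11 neural genes 2 rose and 2 fell in the main comparison, with a median of -0.12.

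Among the 65 olfactory and vomeronasal receptor genes used as a background level, 5 (7.69%) were called in the main comparison, beside 6.06% of the Hox genes and 24.2% of all genes.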
